A study of Mus musculus with 45 samples.

Results

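The genes described here, Reg3a, Reg3b, Reg3g, Reg4, Retnlb, Nos2, Duox2, Duoxa2, Lcn2 and Pigr, encode antimicrobial and host defence proteins of the gut lining. These 10 genes were taken by name from the 52636 genes measured in mouse intestinal stem cells and organoids. Of the 45 libraries, 15 came from cells sorted for the Lgr5 reporter and 30 from organoids. In the sorted cells of the Lgr5-DTReGFP line, eGFP marks cells that express Lgr5, and the knock-in allele is null. Pools of the whole small intestine at E16.5 were heterozygous (HE, 2 pools of 7 and 8 embryos) or homozygous null (KO, 2 pools of 2 and 6 embryos), and each of 2 litters gave 1 pool of each genotype. HE cells were also taken from 2 single embryos at E18.5 and, from each of 2 adult mice aged 2 months, from both duodenum and ileum. The remaining sorted cells came from the ileum of 5 adult mice of the same age that carried Lgr5-Cre, either with a normal second allele (Lgr5-Cre/+, HE) or with a floxed one (Lgr5-Cre/flox, cKO). These mice had received 2 mg of tamoxifen 48 hours before harvest, and their cells were sorted as positive for eGFP and RFP. Cre was driven by the Lgr5 locus itself, so every sorted group carried at least 1 disrupted Lgr5 allele. Organoids at passage 4 came from E17.5 small intestine of the Lgr5-DTReGFP line, 3 wild-type (WT) cultures and 2 KO cultures. Each culture was grown with mouse Rspondin 1, 2 or 3 (Rspo1, Rspo2, Rspo3) at 100 or 5 ng/ml.

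The gut lining holds microbes away from its surface with secreted and membrane-bound proteins. Reg3a, Reg3b and Reg3g are secreted C-type lectins, and Reg3b and Reg3g are known to act on bacteria in the small intestine. Reg4 is a further lectin of the Reg family, and Retnlb (RELMb) is a goblet cell product that damages bacterial membranes. Nos2 makes nitric oxide, Duox2 makes hydrogen peroxide at the apical membrane, and Duoxa2 is the maturation factor that Duox2 needs to reach that membrane. Lcn2 binds bacterial siderophores, and Pigr carries dimeric IgA across the epithelium. Several of these genes are known targets of IL-22 and STAT3 or of NF-kB signalling.

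The 3 Reg3 genes lie in 1 cluster on chromosome 6 of GRCm38, in the order Reg3b (78370657 to 78373466, plus strand), Reg3d, Reg3a (78380709 to 78383827, plus strand), Reg2, Reg1 and Reg3g (78466269 to 78468872, minus strand), and Reg3b ends 7242 bases before Reg3a starts. Duox2 and Duoxa2 on chromosome 2 are transcribed away from each other from starts 450 bases apart. Duox2 spans 122279247 to 122298449 (minus strand) and Duoxa2 122298900 to 122302885 (plus strand). Of the remaining genes, Pigr lies at 130826684 to 130852249 on chromosome 1, Lcn2 at 32384633 to 32388252 on chromosome 2 (minus strand), Reg4 at 98222156 to 98236748 on chromosome 3, Nos2 at 78920787 to 78960254 on chromosome 11 and Retnlb at 48816856 to 48818892 on chromosome 16. The exons were checked for sequence shared with other genes. Of the 50-base stretches of Duox2, 6.05% also occurred in Duox1, and 682 exon bases of Duoxa2, or 42.8%, lie opposite exons of the antisense gene Duoxa1. Whether strand was used in the counting is not given in the sources used here, so the values of Duoxa2 are uncertain in that respect.

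The upstream sequences of the Reg3 genes are shown because these neighbours differed in how they followed stage, region and dose. They are the 250 bases before the RefSeq start (GRCm38.p6), 5′ to 3′ on the strand of the gene, and capitals mark matches to 4 motifs searched on both strands. The motifs were TTCNNNGAA (bound by STAT factors), CTTTGAT (TCF/LEF), TATAAA (the TATA box) and the NF-kB consensus. For Reg3b only the 154 bases that are free of annotated untranslated exons are printed.
Reg3a (chr6:78380459-78380708, plus strand): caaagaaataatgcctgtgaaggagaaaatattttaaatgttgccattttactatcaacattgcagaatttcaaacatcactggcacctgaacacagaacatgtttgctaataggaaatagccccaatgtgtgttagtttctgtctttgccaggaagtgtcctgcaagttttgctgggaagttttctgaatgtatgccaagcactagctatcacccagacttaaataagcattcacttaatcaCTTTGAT
Reg3b (chr6:78370707-78370860, plus strand): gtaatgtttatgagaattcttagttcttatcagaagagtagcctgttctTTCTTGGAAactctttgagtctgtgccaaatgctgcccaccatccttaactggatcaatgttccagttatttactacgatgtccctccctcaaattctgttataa
Reg3g (chr6:78468875-78469124, minus strand): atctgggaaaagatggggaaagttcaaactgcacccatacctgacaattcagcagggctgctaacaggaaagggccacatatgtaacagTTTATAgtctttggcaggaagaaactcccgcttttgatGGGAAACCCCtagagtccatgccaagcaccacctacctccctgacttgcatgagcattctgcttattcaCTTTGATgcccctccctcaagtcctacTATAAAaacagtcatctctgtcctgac

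Among 27025 promoters of the same length, 7.18% held TTCNNNGAA, 3.23% held CTTTGAT, 13.0% held TATAAA and 3.75% held the NF-kB consensus. Reg3b carried the STAT match 129 bases before its start, and a TATAAA whose last base lies beyond the printed stretch at 29 bases. Reg3a carried CTTTGAT at 7 bases and no TATAAA. Reg3g carried CTTTGAT at 54 bases, the NF-kB consensus and TATAAA at 27 bases, with its complement at 161 bases. None of the windows of Reg4, Duox2, Lcn2 and Pigr held any of these letters, Duoxa2 held TATAAA alone, and 8 of the 10 genes had an entry. Over the whole windows, Reg3b and Reg3g were identical at 68.9% of aligned bases, Reg3a and Reg3g at 50.6%, and Reg3a and Reg3b at 49.3%.

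Values are CPM, the reads of a gene scaled to a common total of reads on genes. Sorted-cell libraries held 1275923 to 9976676 reads on genes and organoid libraries 18127679 to 33105519, so that 1 read is worth up to 0.784 CPM in sorted cells and at most 0.0552 CPM in organoids. A count of 0 allows a level of up to 3 reads, which is 2.35 CPM in the shallowest library, an E16.5 pool. Differences are given as log2 fold changes of CPM + 1 with their standard errors (SE), tested with limma over all genes that passed a filter on low values. In sorted cells a gene was called when its fold change reached 1.5 at a false discovery rate (FDR) of 0.1, and in organoid contrasts at an FDR of 0.05. In bulk RNA, a change in the number of cells of a type and a change in the RNA of each cell cannot be told apart. Summed over 6 stem cell markers, the sorted libraries held 546 to 5870 CPM, and Lgr5 itself was present in every one. Other cell types were seen too, with 7 Paneth cell markers at 84.5 to 267 CPM before birth, 11444 to 32320 CPM in untreated adult libraries and 2720 to 7251 CPM after tamoxifen, and 7 goblet cell markers at 372.5 to 834 CPM before birth, 1571 to 8280 CPM in untreated adults and 7060 to 13566 CPM after tamoxifen. The 6 neutrophil markers reached at most 4.05 CPM in sum and the 3 plasma cell markers at most 4.15 CPM in any sorted library.

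**Figure D1:**
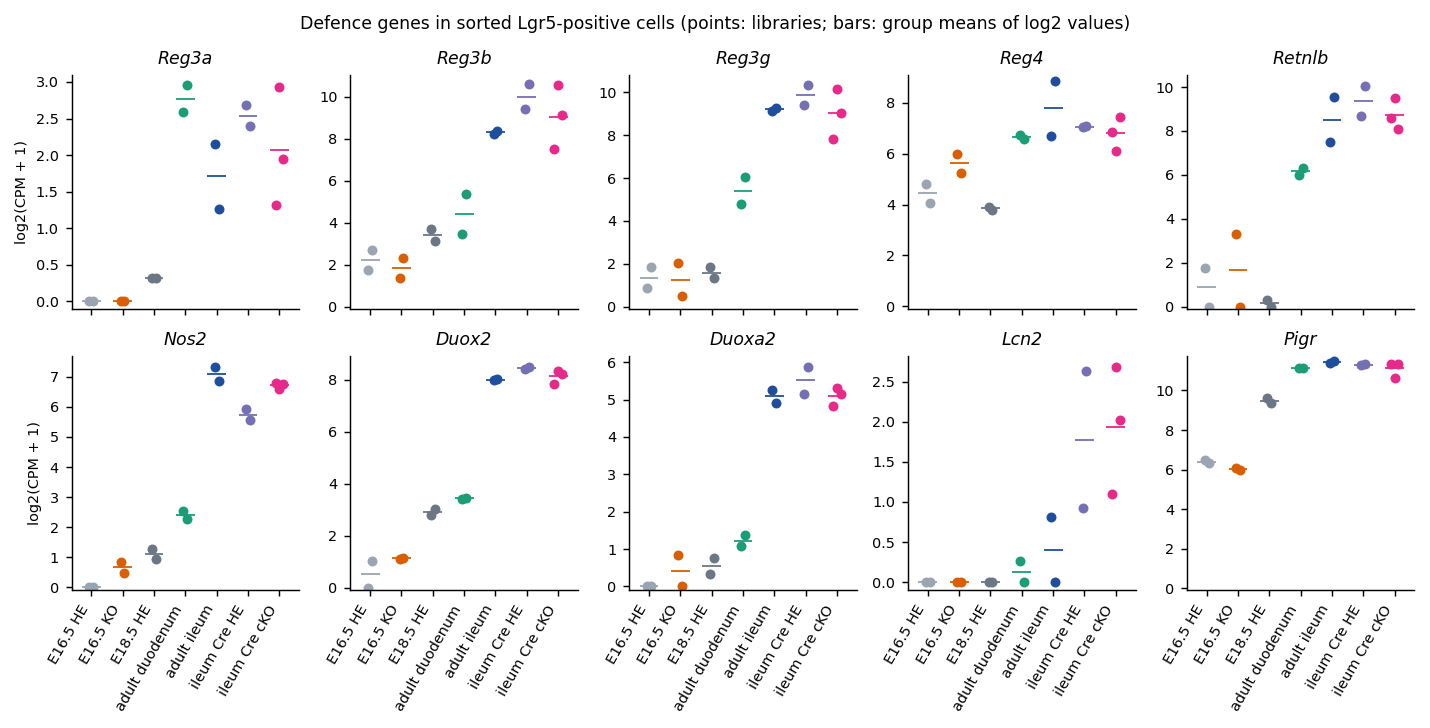
Level of each gene in the 15 sorted-cell libraries, as log2(CPM + 1) on an axis of its own for each gene, with 1 point per library and a bar for the group mean. In Nos2, Duox2 and Duoxa2 the ileum lies far above the duodenum and the embryos. The duodenum lies near the E18.5 embryos in Duox2 and Duoxa2 and above them in Nos2. In Pigr both adult regions lie together.

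Before birth, Pigr and Reg4 were the genes of the group above 12 CPM in every library, and the others were at or under 12 CPM. In HE cells Pigr measured 88.6 and 78.2 CPM at E16.5 and 790 and 656 CPM at E18.5. Both E18.5 embryos thus lay above both E16.5 pools, and the group means differed by 3.10 log2 units (SE 0.13, limma adjusted p 0.000126). Duox2 was 0 and 1.05 CPM at E16.5 and 6 and 7.05 CPM at E18.5, and Reg3b 2.4 and 5.55 CPM against 12 and 7.7 CPM. Both rose, Duox2 by 2.39 (SE 0.44, adjusted p 0.00637) and Reg3b by 1.17 (SE 0.43, adjusted p 0.0634). Of the 5 genes that passed the filter, 3 were thus called higher at E18.5, where 30.3% of all genes tested were called higher and the median gene stood 0.23 log2 units higher. Reg3g was 0.8 and 2.55 CPM at E16.5 and 2.55 and 1.55 CPM at E18.5, and Reg4 27.5 and 15.7 CPM against 14.1 and 12.8 CPM, and neither was called. The call of Reg3b was lost with trimmed-mean (TMM) scaling, which lowered the median difference of all genes to 0.10 and under which Reg4 was called lower (-0.73, adjusted p 0.0821), as it was by edgeR on recovered reads (-0.76, adjusted p 0.0379). Without either E18.5 library, Pigr alone was called. The other 5 genes were not tested, having fewer than 2 libraries at 1 CPM: Reg3a and Lcn2 were at 0 in both E16.5 HE pools, Nos2 reached 1.4 CPM at E18.5 and Duoxa2 0.7 CPM, and Retnlb was 2.4 and 0 CPM at E16.5 and 0.25 and 0 CPM at E18.5.

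At E16.5 the comparison of KO with HE pools asked for effects of Lgr5 loss before birth. Lgr5 was called lower in the KO pools (64.8 and 51.7 CPM against 104 and 125 CPM in HE, adjusted p 0.0795). None of the 6 defence genes tested was called by limma, and 0.527% of all genes were (91 of 17276, with 2354 at an unadjusted p under 0.05). Reg4 showed the largest difference, with 62.1 and 37.4 CPM in the KO pools against 27.5 and 15.7 CPM in their HE littermates. Both KO values of Reg4 lay above both HE values, and the group means differed by 1.18 log2 units (SE 0.31, adjusted p 0.155). With litter as a block, Reg4 was called (1.18, SE 0.24, adjusted p 0.000167, with 1.56% of all genes called higher), and so it was by edgeR on reads recovered from the CPM steps (1.21, adjusted p 0.0870, 0.301% of genes). With the litter block the pools leave little spread of their own, so that p-value leans mostly on the spread of other genes. Pigr was 67.4 and 62.0 CPM in KO and 88.6 and 78.2 CPM in HE, lower in both litters but not called (-0.36, SE 0.16, adjusted p 0.375). Retnlb was seen in 1 litter alone, at 8.85 CPM in KO and 2.4 CPM in HE. Goblet cell markers summed to 521 and 834 CPM in KO and 396 to 415 CPM in HE, and Paneth cell markers to 267 and 141 CPM in KO and 92.6 and 84.5 CPM in HE. Enterocyte markers moved the other way, at 714 and 581 CPM in KO and 1941 and 1449 CPM in HE, as did 5 mesenchyme markers, at 137 to 370 CPM in KO and 595 to 1326 CPM in HE. Their part in these differences was not tested.

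With duodenum and ileum pooled as 4 libraries, 5 of the 9 genes tested were called higher in adults than at E18.5, where 9.36% of all genes were. Retnlb went from 0.25 and 0 CPM to 63.2 and 79.3 CPM in the duodenum and 177 and 753 CPM in the ileum, at least 103-fold higher in the duodenum and at least 672-fold in the ileum when E18.5 is set to 3 reads in its shallower library (fitted log2 difference 7.18, SE 0.88, adjusted p 0.00219). Reg3g went from 2.55 and 1.55 CPM to 26.4 and 66 CPM in the duodenum and 556 and 624 CPM in the ileum (5.72, SE 1.23, adjusted p 0.0202). Reg4 rose from 14.1 and 12.8 CPM to 105 and 95.4 CPM in the duodenum and 103 and 465 CPM in the ileum (3.37, SE 0.61, adjusted p 0.00994). For all of the 9 genes tested except Reg3b, called or not, all 4 adult libraries lay above both embryos. The share of all genes for which this held was not counted. Pigr, already abundant at E18.5, reached 2226 and 2256 CPM in the duodenum and 2677 and 2850 CPM in the ileum (1.79, SE 0.15, adjusted p 0.000394). Reg3a, at 0.25 CPM in both embryos, had higher values in the duodenum than in the ileum, 5 and 6.75 CPM in the duodenum and 3.45 and 1.4 CPM in the ileum (1.92, SE 0.45, adjusted p 0.0277). Between the same libraries, Paneth cell markers went from 146 and 153 CPM at E18.5 to 11444 to 32320 CPM in adults. Tuft cell markers went from 1.7 and 4.65 CPM to 169 to 2453 CPM, and goblet cell markers from 372.5 and 518 CPM to 1571 to 8280 CPM. Enterocyte markers fell, from 1551 and 1248 CPM to 118 to 627 CPM. The part of these cell types in the differences was not tested.

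Reg3b, Nos2, Duox2 and Duoxa2 were not called over both regions together, and their adult libraries spread widely between the regions (SE 1.24 to 1.49, adjusted p 0.140 to 0.231). With the ileum alone, all 9 genes were called higher than at E18.5 (11.2% of all genes), with log2 differences of 6.01 for Nos2, 5.09 for Duox2, 4.89 for Reg3b and 4.55 for Duoxa2. With the duodenum alone, 6 of the 9 were called (14.1% of all genes). Nos2 was among them (1.32, SE 0.29, adjusted p 0.0119), whereas Reg3b (1.01, SE 0.53, adjusted p 0.202), Duox2 (0.52, SE 0.22, adjusted p 0.122) and Duoxa2 (0.68, SE 0.31, adjusted p 0.139) were not. When the regions of each mouse were averaged, so that a mouse counted once, all 9 were called (14.5% of all genes). Lcn2 stayed at or under 0.75 CPM in all 4 adult libraries. Each of the comparisons with E18.5 rests on 2 embryos, and without either one the calls over both regions fell to Retnlb and Pigr.

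The ileum was next compared with the duodenum of the same mice. Of the 9 genes tested, 6 were called higher in the ileum, against 2.24% of all genes. Nos2 was 4.85 and 3.85 CPM in the duodenum and 161 and 117 CPM in the ileum, a ratio of means of 31.9 (4.69, SE 0.23, adjusted p 0.000364). Duox2 was 9.65 and 9.9 CPM in the duodenum and 249 and 261 CPM in the ileum (ratio 26.1, log2 difference 4.57, SE 0.16, adjusted p 0.000197). Duoxa2 was 1.1 and 1.6 CPM against 37.5 and 29.1 CPM (ratio 24.7, log2 difference 3.86, SE 0.27, adjusted p 0.00155). In all 3, each mouse showed the same direction and the regions did not overlap.

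The secreted lectins of the cluster split. Reg3b was 10 and 40.5 CPM in the duodenum and 301 and 330.1 CPM in the ileum (ratio 12.5, log2 difference 3.89, SE 0.53, adjusted p 0.00985). Reg3g, 26.4 and 66 CPM against 556 and 624 CPM, had a ratio of 12.8 (3.78, SE 0.37, adjusted p 0.00416). The call of Reg3b was lost without either ileum library (adjusted p at most 0.138 in any alternative). Reg3a, which lies between them, had higher values in the duodenum but was not called (-1.06, SE 0.38, adjusted p 0.213). Retnlb was called higher in the ileum (2.35, SE 0.57, adjusted p 0.0760), a call that was lost in 6 of 11 alternatives, TMM scaling and leaving out either duodenum library among them. Reg4 (1.12, SE 0.59, adjusted p 0.421) and Pigr (0.30, SE 0.19, adjusted p 0.532) were not called. Reg4 and Retnlb were both highest in the second ileum library. This library also held the most goblet cell marker RNA of the 4 (8280 CPM against 2243 CPM in the first ileum library). Paneth cell marker RNA was highest there too (32320 CPM against 11444 CPM in the first ileum library and 17001 and 19052 CPM in the duodenum). The part of these cells in the values was not tested. Tuft cell markers were lower in the ileum, with 1392 and 2453 CPM in the duodenum and 169 and 342 CPM in the ileum. Neutrophil markers were at most 2.35 CPM in these 4 libraries. Markers of other leukocytes are not given here, and the part of immune cells in the values was not tested. With mouse as a block, the calls fell on these 6 genes again, and 3.97% of all genes were called higher.

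**Figure D2:**
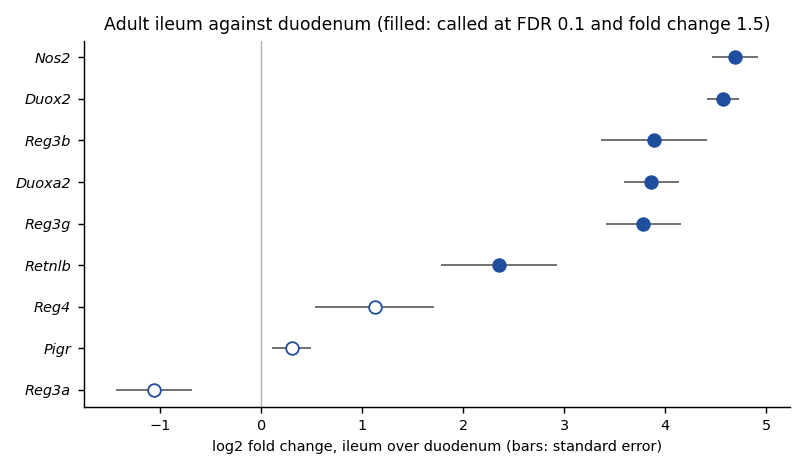
Log2 fold change of ileum over duodenum in the same 2 adult mice, with bars for 1 standard error and filled points for genes called higher. Nos2, Duox2, Reg3b, Duoxa2 and Reg3g lie between 3.78 and 4.69, and Reg3a alone lies below 0.

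Levels per kilobase of exon, which allow a comparison between genes, put Pigr first at E18.5 and in the duodenum (180 and 557 mean CPM per kb), with Reg4 next at E18.5 (13.1). In the duodenum Retnlb (102) and Reg4 (98.1) followed, with an order that does not exceed the spread between the 2 mice. In the untreated adult ileum, Pigr (686) and Retnlb (668) were followed by Reg3g (279), Reg4 (278) and Reg3b (276), whose order does not exceed the spread between the 2 mice. Duox2 (37.7), Nos2 (31.4) and Duoxa2 (20.9) lay below them, and Reg3a (2.94) and Lcn2 (0.142) were lowest.

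Across the 15 sorted libraries, some of the genes whose log2 levels followed these members most closely were members themselves. Duoxa2 followed its antisense neighbour Duoxa1 (Pearson r 0.990) and Duox2 (0.979), Reg3b followed Duox2 (0.970) and Reg3g (0.967), and Retnlb followed Oit1 (0.980) and the goblet cell gene Spink4 (0.978). As Duoxa1 and Duoxa2 share exon bases on opposite strands, their correlation and values carry the same doubt. These values describe libraries that share stage, region and line, and no test was made of them.

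Other defence genes from a list of 30 gave a wider view of stage and region. From E18.5 to adult, 7 of 19 tested were called higher and 5 lower (9.36% and 9.65% of all genes), with a median log2 difference of 1.20 against -0.04 for all genes. Lyz1 (lysozyme, 9.25) and Pla2g2a (a secreted phospholipase of Paneth cells, 7.80) rose most, while the small proline-rich genes Sprr2a1 (-1.98) and Sprr2a3 (-1.99) fell. Between regions, 5 of 18 were called higher in the ileum and 1 lower (2.24% and 4.64% of all genes), with a median of 0.68 against 0.03 for all genes. The oxidase Nox1 (3.94, SE 0.17, adjusted p 0.000326) and the Duox1 maturation factor Duoxa1 (2.98, SE 0.29, adjusted p 0.00389), whose exons overlap those of Duoxa2, were higher, and Reg1, a lectin gene of the same cluster, was lower (-3.54, SE 0.28, adjusted p 0.00226). From E16.5 to E18.5, 8 of 14 were called higher and 1 lower (30.3% and 19.4% of all genes, median 1.66 against 0.23), led by Reg1 (4.95) and the glutathione peroxidase Gpx2 (3.64), with Zg16, a goblet cell lectin, lower (-1.79).

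In a second list of 33 genes for microbial sensing and cytokine signalling, 5 of 32 tested were called higher in the ileum and none lower (2.24% and 4.64% of all genes), with a median of 0.07 against 0.03 for all genes. The receptors Tlr4 (2.95, adjusted p 0.0161), which senses lipopolysaccharide, and Tlr5 (2.13, adjusted p 0.0799), which senses flagellin, were the largest. From E18.5 to adult, 7 of 32 rose and 2 fell (9.36% and 9.65% of all genes), with a median of 0.35 against -0.04 for all genes. Tlr3 (2.92) rose most, and Il22ra1, a chain of the IL-22 receptor (-1.15, adjusted p 0.0701), and Tlr5 (-3.26, adjusted p 0.0307) fell. Il22ra1 had risen from E16.5 to E18.5 (2.51, adjusted p 0.000396), when 11 of 31 rose and 6 fell (30.3% and 19.4% of all genes), with a median of 0.40 against 0.23 for all genes. At E16.5, none of the 12 effectors or 30 signalling genes tested was called between KO and HE.

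The 5 ileum libraries after tamoxifen test the deletion of Lgr5 in adult stem cells, and their genotype labels are in doubt. The deposited labels and a supplementary dataset of the study give different genotypes to 2 of the 5: the library labelled HE 1 is a cKO there, and the library labelled cKO 2 is an HE. Lgr5 reads did not settle this, at 52.8 and 87.6 CPM in the libraries labelled HE and 89.2, 109 and 90.7 CPM in those labelled cKO. In the paper the deletion takes out a single exon of the floxed allele, whereas these values cover reads over the whole gene. They need not differ by genotype and so tell little about the labels or the deletion. By the labels, Lgr5 differed by 0.49 (adjusted p 0.864) and by the other version by -0.37 (adjusted p 0.368). The Y-linked gene Ddx3y was 47.3 and 73.0 CPM in the libraries labelled HE and at most 0.15 CPM in those labelled cKO, so sex and labelled genotype cannot be told apart.

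By the deposited labels, none of the 10 defence genes was called by limma or by edgeR on recovered reads, and by limma 0.0504% of all genes were (10 of 19848, with 902 at an unadjusted p under 0.05). Reg3b was 673 and 1549 CPM in the libraries labelled HE and 180, 1491 and 552 CPM in those labelled cKO. Reg3g followed with 675 and 1297 CPM against 226, 1146 and 533 CPM, and Retnlb with 404 and 1073 CPM against 381, 725 and 270 CPM. In each of the 3 genes the labelled groups overlapped (log2 differences -0.94, -0.85 and -0.64, adjusted p 0.864), and that of Retnlb turned to 0.06 without the library labelled HE 2. Duox2 and Nos2 were the genes whose labelled groups lay apart, in opposite directions. With so few libraries groups easily lie apart, and the share of all genes that did was not counted. Duox2 was 339 and 359 CPM in HE and at most 323 CPM in cKO (-0.32, SE 0.17, limma adjusted p 0.864). Nos2 was 59.7 and 46.4 CPM in HE and 111, 96.8 and 108 CPM in cKO. Its difference of 0.99 (SE 0.16) had an unadjusted p of 0.00032 and an adjusted p of 0.578, so it was not called, although it was with no filter on low values.

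With the genotypes of the supplementary dataset, Retnlb, Reg3g and Reg3b were called lower in cKO, where 1.38% of all genes were called lower and 779 genes in either direction. Reg3b was then 468 ± 257 CPM (SD, n = 3) in cKO and 1520 ± 40.7 CPM (n = 2) in HE (-1.90, SE 0.44, limma adjusted p 0.0737). Reg3g was 478 ± 229 CPM against 1222 ± 107 CPM (-1.49, SE 0.37, adjusted p 0.0814), and Retnlb 352 ± 71.4 CPM against 899 ± 246 CPM (-1.35, SE 0.20, adjusted p 0.0227). In this version the libraries of the 2 genotypes did not overlap for these 3 genes. Nor did they for Duoxa2 (at most 34.8 CPM in cKO, at least 38.5 CPM in HE) and Lcn2 (at most 3.05 CPM, at least 5.2 CPM), which were not called. Nos2 did overlap (0.41, adjusted p 0.490), and the share of all genes without overlap was not counted. The same split divided some other measures. The 2 libraries listed as HE held 7251 and 5458 CPM of Paneth cell markers against 2720 to 3688 CPM in the other 3, 140.2 and 150.2 CPM of enterocyte markers against 257 to 546 CPM, and at most 26.7 CPM of tuft cell markers against 55.3 to 76.7 CPM. They were also shallower, with 3084686 and 5717605 reads on genes against 8122516 to 9976676, and had 22675 and 24944 genes above 0 against 32121 to 42154. Goblet cell markers did not follow the split, at 13534 and 7060 CPM in the 2 libraries listed as HE and 9979 to 13566 CPM in the others. Neither did stem cell markers, at 2695 and 2993 CPM against 2038 to 3213 CPM. The part of all these measures in the calls was not tested. Without the 2 libraries in conflict, 1 HE library and 2 cKO libraries remained, and no test is given. The log2 differences of cKO from HE were then -2.29 for Reg3b, -1.90 for Reg3g, -1.74 for Retnlb and 1.23 for Nos2.

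**Figure D3:**
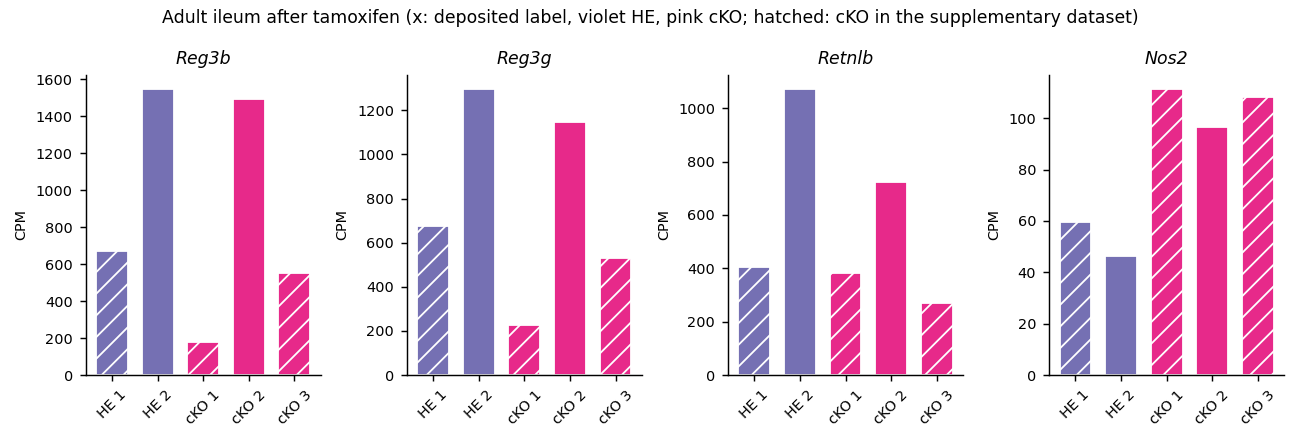
CPM of 4 genes in each of the 5 adult ileum libraries after tamoxifen, named and coloured by deposited label (violet HE, pink cKO), with hatching for libraries that the supplementary dataset lists as cKO. For Reg3b, Reg3g and Retnlb the hatched bars are the 3 lowest, and for Nos2 the pink bars are the 3 highest.

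Of the remaining members, Duox2 ranged from 227 to 359 CPM, Duoxa2 from 27.4 to 57.8 CPM and Pigr from 1600 to 2632 CPM. Reg4 ranged from 67.9 to 175 CPM and Reg3a from 1.5 to 6.65 CPM. Lcn2 ranged from 0.9 to 5.45 CPM, and was at most 1.75 CPM in any other library of the series. None of these 6 genes was called in either version of the genotypes, nor was any of the 24 other effectors or the 33 signalling genes tested by the deposited labels.

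Organoids offered a test of the Wnt-enhancing ligand and its dose outside the animal, and they held a different set of defence transcripts. Retnlb, at 270.4 to 1073 CPM in the ileum after tamoxifen, was at most 0.1 CPM in all 30 organoid libraries and did not pass the filter, although goblet cell markers summed to 2533 to 9467 CPM there. Lcn2 stayed at or under 1.75 CPM and Duoxa2 at or under 3.10 CPM. Reg4 was between 29.1 and 133 CPM in every library and was called in no dose, ligand or genotype contrast. Pigr was between 295 and 2208 CPM, with a median of 834 CPM.

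Lowering Rspo1 or Rspo3 from 100 to 5 ng/ml was accompanied by more Reg3a, Reg3b and Pigr. Over the 6 dose contrasts, 14 of 54 tests of these 9 genes were called, all lower at 100 than at 5 ng/ml. In WT, Reg3a, Reg3b, Reg3g and Pigr were called with Rspo1 (12.5% of all genes lower at 100 ng/ml) and with Rspo3 (13.7%), and Reg3a alone with Rspo2 (9.12%). In KO, Reg3a and Pigr were called with Rspo1 (7.86%) and Reg3a, Reg3b and Pigr with Rspo3 (11.8%). No member was called with Rspo2 in KO, where 0.115% of all genes were called in either direction (22 genes, with 1327 at an unadjusted p under 0.05).

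Reg3b had the widest range. With Rspo1, the WT cultures WT10, WT5 and WT30 held 23.9, 15.9 and 7.95 CPM at 100 ng/ml and 306, 212 and 117 CPM at 5 ng/ml. The doses did not overlap (-3.67, SE 0.65, adjusted p 7.24e-05). With Rspo3, the same cultures held 16.6, 8.05 and 10.2 CPM at 100 ng/ml and 330, 365 and 302 CPM at 5 ng/ml (-4.78, SE 0.65, adjusted p 2.22e-06). With Rspo2, the values were 28.2, 11.2 and 12.4 CPM at 100 ng/ml and 17.9, 7.85 and 11.5 CPM at 5 ng/ml, slightly lower at 5 ng/ml in all 3 cultures and not called (0.40, SE 0.65, adjusted p 0.663). The KO cultures KO7 and KO2 differed from each other with Rspo1: KO7 fell from 29.9 to 17.8 CPM when the dose was lowered, and KO2 rose from 77.7 to 228 CPM (-0.41, SE 0.79, adjusted p 0.734, and 0.72 without KO2). With Rspo3 both rose, from 28.4 to 117 CPM and from 44.8 to 362 CPM (-2.50, SE 0.79, adjusted p 0.0136). The difference between KO and WT in the Rspo1 dose effect was 3.26 (SE 1.02, unadjusted p 0.00424) and did not survive adjustment over all genes (adjusted p 0.999760), and 0% of all genes were called (516 at an unadjusted p under 0.05).

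Reg3a and Pigr moved in the same direction in every culture. Both were higher at 5 than at 100 ng/ml for each of the 3 ligands in 5 of 5 cultures. Reg3a with Rspo3 went from 20.5, 18.8 and 21.2 CPM to 95.8, 133 and 72 CPM in WT and from 9 and 12.7 CPM to 48.7 and 79.5 CPM in KO (-2.22, SE 0.38, adjusted p 4.34e-05 in WT and -2.44, SE 0.47, adjusted p 0.000209 in KO). With Rspo2 the change in WT was smaller, from 16.6, 13.4 and 10.4 CPM to 26.1, 24.6 and 32.3 CPM (-1.004, SE 0.38, adjusted p 0.0462). Pigr with Rspo1 went from 444, 985 and 323 CPM to 1285, 2139 and 1366 CPM in WT (-1.58, SE 0.40, adjusted p 0.00228) and from 549.6 and 441 CPM to 1629.8 and 946 CPM in KO (-1.33, SE 0.49, adjusted p 0.0437). With Rspo2 the Pigr difference in WT was -0.78 (SE 0.40, adjusted p 0.135), and it was called when culture entered as a block (SE 0.26, adjusted p 0.0155, 13% of all genes lower). Reg3g was called in WT with Rspo1 (-1.44, SE 0.60, adjusted p 0.0472) and Rspo3 (-1.60, SE 0.60, adjusted p 0.0288), but these calls were lost without the WT5 or the WT30 culture (adjusted p at most 0.198 in any alternative), and with Rspo1 also without WT10. Leaving out any 1 WT culture also ended the call of Reg3a with Rspo2 (adjusted p at most 0.314 in any alternative), and leaving out WT10 that of Pigr with Rspo3 in WT (adjusted p 0.0552). In KO, the Pigr calls were lost without either KO culture (adjusted p at most 0.429 in any alternative), that with Rspo1 also without WT10, and the Reg3a call with Rspo1 without KO7 (adjusted p 0.113).

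**Figure D4:**
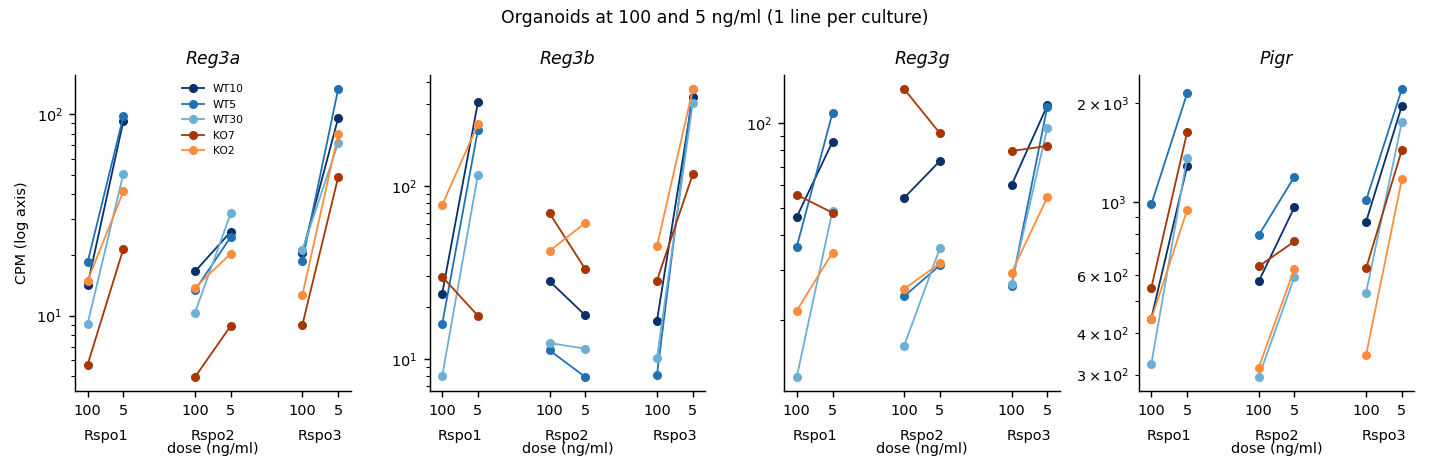
CPM on a log axis of Reg3a, Reg3b, Reg3g and Pigr in organoids at 100 and 5 ng/ml of Rspo1, Rspo2 and Rspo3, with 1 line per culture (blue WT, orange to brown KO). Reg3a and Pigr rise from 100 to 5 ng/ml in each line, and Reg3b rises with Rspo1 and Rspo3 except in KO7 with Rspo1.

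Differentiation markers moved with dose as well. In WT with Rspo1, the 6 stem cell markers summed to 1412 to 2079 CPM at 100 ng/ml and 216 to 274 CPM at 5 ng/ml, and the 7 enterocyte markers to 2519 to 2624 CPM and 6225 to 6643 CPM. In WT with Rspo2, enterocyte markers were 2359 to 3820 CPM and 4167 to 8830 CPM. In KO with Rspo2 they overlapped between doses, at 3233 to 3902 CPM and 3413 to 5782 CPM. The part of these cells in the dose effects was not tested. With TMM scaling the median difference of all genes in WT with Rspo1 moved from 0.28 to 0.02, and the share of called genes that were higher at 100 ng/ml from 76.6% to 50.3%. Under that scaling the calls fell on the same genes of the group in each of the 6 contrasts.

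Between ligands at the same dose, Rspo2 stood apart from Rspo1 at 5 ng/ml in WT. Of 72 tests over 8 contrasts, 2 were called, and both were of this contrast (6.35% of all genes lower). In the paper, full organoid survival was reached at 5 ng/ml with Rspo2 but not with Rspo1. The part of survival in this contrast was not tested. Reg3b was 17.9, 7.85 and 11.5 CPM with Rspo2 and 306, 212 and 117 CPM with Rspo1 (-3.95, SE 0.65, adjusted p 0.000335), and Reg3a 26.1, 24.6 and 32.3 CPM against 92.7, 97.7 and 50.6 CPM (-1.46, SE 0.38, adjusted p 0.00906). The call of Reg3a was lost without WT10 or WT5 (adjusted p at most 0.161 in any alternative). With culture as a block, 8 tests were called, where 10.7% of all genes were lower and 24.3% higher in this contrast. They added Pigr (-0.82, SE 0.26, adjusted p 0.0157) and Lcn2 (0.65, SE 0.23, adjusted p 0.0277) in the same WT contrast, Pigr (-0.84, adjusted p 0.0434) and Reg3a (-1.09, adjusted p 0.0109) for Rspo2 against Rspo1 at 5 ng/ml in KO (8.14% of all genes lower), and Reg3b (1.66, adjusted p 0.0453) and Reg3a (1.03, adjusted p 0.0166) for Rspo3 against Rspo1 at 5 ng/ml in KO (6.63% higher). At 100 ng/ml no member was called between ligands with or without the block. Across the 12 groups, Reg3b was the member that passed an FDR of 0.001 and a range of group means above 16-fold (27.4-fold, limma F test adjusted p 2.85e-06), a limit that 0.659% of all genes passed. Without the WT5 culture it was not called.

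None of the 54 tests of these genes over 6 contrasts of genotype in organoids was called by limma. Of all genes, 0.214% and 0.125% were called with Rspo1 at 100 and 5 ng/ml, 1.2% and 4.54% with Rspo2, and 0.868% and 0.193% with Rspo3 (24 to 868 genes, with 1033 to 4232 at an unadjusted p under 0.05). The smallest unadjusted p was that of Reg3a with Rspo1 at 5 ng/ml (-1.34, SE 0.43, unadjusted p 0.00467, adjusted p 0.494). Reg3b was 1.6 to 1.85 higher in KO in 4 contrasts and had a difference of -1.59 with Rspo1 at 5 ng/ml, with adjusted p of 0.133 to 0.562. In the remaining contrast, Rspo3 at 5 ng/ml, its difference was -0.68. Without KO7 both negative differences changed sign, to 0.22 and 0.13. In those 4 contrasts every KO value of Reg3b lay above every WT value. Reg3a lay lower in KO without overlap in 3 contrasts, among them Rspo1 at 5 ng/ml (21.5 and 41.4 CPM in KO and 50.6 to 97.7 CPM in WT). Reg3g did so in 2 contrasts and Reg4 and Pigr in 1 each, and Lcn2 lay higher in KO in 1. With so few cultures groups easily lie apart, and the share of all genes that did was not counted. Ddx3y was 55 CPM or more in all KO libraries and at most 0.45 CPM in all WT libraries, so sex and genotype cannot be told apart here either. Of the signalling genes, Tlr4 was called higher in KO in 5 of the 6 contrasts, by 1.08 to 1.80 log2 units.

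Nos2, Duox2 and Duoxa2 differed widely between cultures. Over its 6 conditions, Nos2 was 7.65 to 33.7 CPM in WT10 (median 30.7), 3.55 to 27.4 CPM in WT5 (19.3) and 2.5 to 52.1 CPM in KO7 (17.9). It was 0.45 to 1.25 CPM in WT30 (0.6) and 0.6 to 2.65 CPM in KO2 (1.38). Every value of WT30, and every value of KO2 except that with Rspo1 at 100 ng/ml, thus lay below every value of the other cultures, and the 2 low cultures were of different genotype. Duox2 had medians of 13.7, 5.6 and 7.6 CPM in WT10, WT5 and KO7 and 2.1 and 3.23 CPM in WT30 and KO2, with overlapping ranges. Duoxa2 had medians of 2.03, 0.8 and 0.925 CPM against 0.175 and 0.375 CPM.

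**Figure D5:**
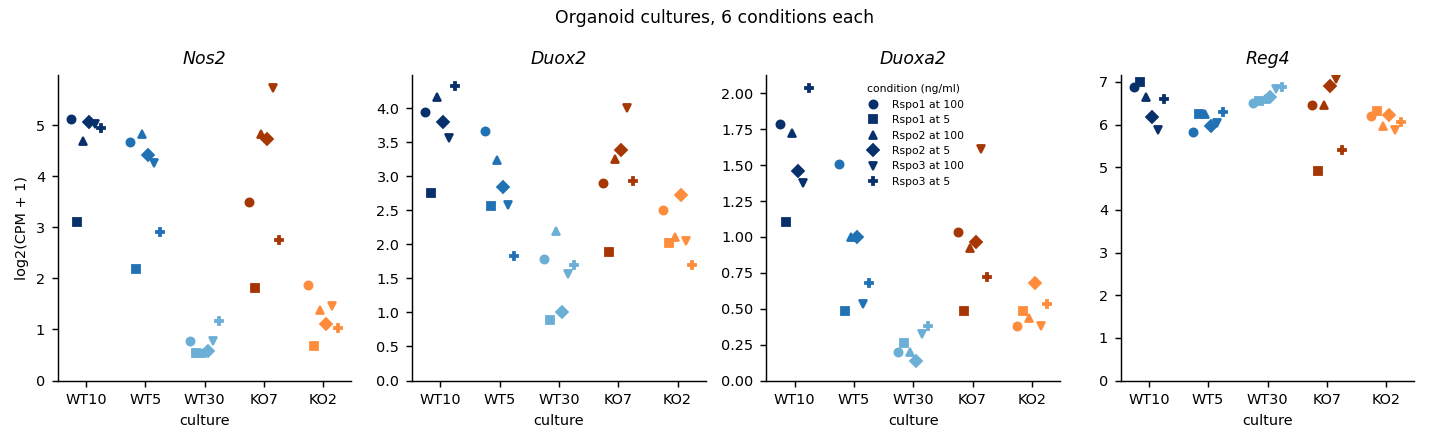
Log2(CPM + 1) of Nos2, Duox2, Duoxa2 and Reg4 in the 5 organoid cultures, each point 1 of 6 conditions of ligand and dose. Nos2 lies between 2.5 and 52.1 CPM in WT10, WT5 and KO7 and at or under 2.65 CPM in WT30 and KO2, whereas Reg4 overlaps between all 5 cultures.

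Against that spread between cultures, the dose effects on these 3 genes were not called (Nos2 with Rspo1 in WT 1.57, SE 1.57, adjusted p 0.411). Within cultures, Nos2 and Duox2 were both lower at 5 than at 100 ng/ml with Rspo1 in 5 of 5 cultures, the opposite of Reg3a and Pigr. With culture as a block they were not called either (adjusted p 0.1202 for Nos2, 0.0571 for Duox2 and 0.0991 for Duoxa2). With culture as a fixed block, an alternative added after the values were seen, the Rspo1 contrast in WT was called for Nos2 (1.57, SE 0.52, adjusted p 0.0120), Duox2 (1.06, SE 0.34, adjusted p 0.0108) and Duoxa2 (0.55, SE 0.21, adjusted p 0.0285). In that fit 48.4% of all genes were called higher at 100 ng/ml, and 19 of the 54 dose tests of members were called against 14. With Rspo2 the 5 cultures were mixed in direction for both genes, and with Rspo3 Nos2 was lower at 5 ng/ml in 4 of 5.

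The genes closest to Nos2 across the 30 organoid libraries were Zc3h12a (Pearson r 0.939), which encodes an RNase that degrades inflammatory transcripts, Nfkbia (0.917), the inhibitor of NF-kB, and Duox2 (0.888). Their culture medians followed the same split: Zc3h12a was 43.1, 37.8 and 49.8 CPM in WT10, WT5 and KO7 and 16.2 and 18.9 CPM in WT30 and KO2, and Nfkbia was 139.7, 123.4 and 148.8 CPM against 52 and 41.5 CPM. Reg3a had other companions (Cyp4f16, 0.967), as had Reg3b (the nucleoside transporter gene Slc28a1, 0.929, and the peptide transporter gene Slc15a1, 0.921), Reg3g (Icosl, 0.855) and Pigr (Mpnd, 0.884). The correlation of Reg3b with Duox2 was 0.970 over the sorted libraries and -0.12 over the organoids. The 30 libraries come from 5 cultures, so these correlations are given as descriptions. Neutrophil markers summed to at most 3.4 CPM in the organoids, and a wider list of leukocyte markers to 15.6 to 54.4 CPM. The part of either in these values was not tested.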

How the data were processed

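RNA of sorted cells was made into libraries with the Ovation SoLo kit and that of organoids after ribosomal RNA depletion, and both were sequenced as paired ends. Per the labels, the authors trimmed reads with Trimmomatic 0.36, aligned them with STAR 2.5.3a and counted them with HTSeq 0.9.1 (GRCm38.p4 and mm10 are named as builds). The deposited values are CPM, in separate tables for sorted cells and organoids, and tests stayed within a table. Low values were whole multiples of 1 read, from which depth was recovered.

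Values were tested as log2(CPM + 1) with limma 3.58.1 in R 4.3.3, keeping genes of at least 1 CPM in 2 libraries, with Benjamini-Hochberg adjustment over all genes tested. edgeR 4.0.16 was an alternative on recovered reads in the sorted cells, where 100% of values up to 100 reads came out whole within the rounding and 0.01 read. The scripts were tested on simulated data. The 10 genes and both lists were chosen with earlier results of these data known, as were the alternatives without the conflicting libraries and with a fixed culture block. Of each list, up to 2 genes with the largest called rise and fall were named, and of the members' companions some with the highest r, and 1 gene of the lists is not reported here. Pairing by litter, by mouse and by culture comes from the labels. Same-numbered deviations correlated at -0.03 for litters and 0.26 for mice, and conditions of 1 culture at 0.40 to 0.59 on average. P-values of limma rest on the spread between the samples of a group, drawn toward that of other genes of like level. In organoids this spread was shared by the 12 groups, whose 30 libraries come from 5 cultures. The 12-group F test used an FDR of 0.001.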

Additional observations from a re-analysis of the deposited data

Results flagged for a closer look

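In a group of 4 libraries, the adult duodenum and ileum of the Lgr5-DTReGFP line, 2 genes had 1 library far from the rest by Dixon's test. Reg4 was 465.15 CPM in the second ileum library, with a gap to the nearest library of 0.974 of the whole range. Retnlb was 752.65 CPM in the same library, with a gap of 0.835 of the range, just above the critical value. The group holds 2 regions of 2 mice, 10 groups of values were examined in this way, and chance alone picks about 1 in 20.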

How the results depend on the processing

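Each alternative was compared with the main limma fit alone, not with the other alternatives. Where either fit called a member's difference, its direction was the same in both. Of 2727 values of members under alternatives, 131 had the opposite sign, all of differences called in neither fit, most of them on leaving out a library or culture. Reg3b in KO against WT with Rspo1 at 5 ng/ml was among them. Alternatives also differed from each other: without KO7 this difference changed sign, and without KO2 it was called lower in KO. Retnlb after tamoxifen was called lower in cKO with the genotypes of the supplementary dataset. Its difference was positive without the library labelled HE 2. At E16.5, 1 of the tested genes was called with litter as a block, and 1 by edgeR on recovered reads, against 0. Over both adult regions against E18.5, the count of 5 became 9 in the fit of all 15 libraries, 9 with the ileum alone, 9 with the regions of each mouse averaged, and 2 to 7 when 1 library was left out. Between E18.5 and E16.5 the count of 3 became 1 to 4 on leaving out 1 library. After tamoxifen the count of 0 became 1 with no filter and 3 with the genotypes of the supplementary dataset. In organoids, leaving out 1 culture gave 0 to 2 calls between genotypes (0 with all), 1 to 4 between ligands (2 with all) and 0 to 2 in the 12-group test (1 with all). The genotype calls were of Reg3b with Rspo2 at 5 ng/ml without KO7 and, without KO2, of Reg3a with Rspo2 and Reg3b with Rspo1, both at 5 ng/ml and both lower in KO. With culture as a replicate block, the ligand count was 8, or 10 with a fixed block, and the dose count of 14 became 15, or 19 with a fixed block.

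Replicate numbers of the E18.5 and E16.5, the adult and E18.5, and the tamoxifen libraries pair no samples by the labels, and their deviations correlated at -0.02, 0.03 and 0.16 to 0.42. With these numbers as a block, Reg4 was also called lower at E18.5 than at E16.5 (adjusted p 0.0791). TMM scaling moved the median of all genes by 0.15 to 0.26 in 5 of 6 dose contrasts and lowered the share of called genes higher at 100 ng/ml from 72.7% to 76.6% down to 49.0% to 52.0%. In the other sorted comparisons, edgeR on recovered reads called 4 members between E18.5 and E16.5 (Reg4 added) and as many as limma elsewhere. Groups of 2 or 3 libraries limit all comparisons, and depth limits the genes near 0 before birth.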

Other observations

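In the list of other defence effectors, the organoid dose contrast of Rspo1 in WT called 4 of 18 genes higher at 100 ng/ml and 4 lower (40.9% and 12.5% of all genes), with a median of 0.39 against 0.28 for all genes. Itln1, a goblet and Paneth cell lectin (2.89), and Ang4, an antimicrobial ribonuclease (2.21), were higher at 100 ng/ml, whereas Reg1 (-2.04, SE 0.28, adjusted p 3.87e-06) and Zg16 (-2.45, SE 0.44, adjusted p 9.36e-05) were lower, as Reg3a and Reg3b were. In the signalling list 8 of 32 were higher and 10 lower (again 40.9% and 12.5% of all genes, median 0.15 against 0.28), with Nod1 (1.44) and Il6st (1.03) the highest and Irak4 (-0.90) and Il17rc (-1.02) the lowest.

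Tnfaip3, which encodes a feedback inhibitor of NF-kB, had medians of 58.9, 38.6 and 69.2 CPM in the cultures WT10, WT5 and KO7 and 21.0 and 17.53 CPM in WT30 and KO2, the same split as Nos2. It was looked up after the split had been seen.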
